A study of Mus musculus with 24 samples.

Results

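The 10 genes described here, Slc13a5, Bcat1, Fabp3, Mboat1, Lgi2, Hapln4, Unc5b, Hspb7, Myo1d and Ston2, were selected on their measured levels among 54232 genes: earlier results of these data had them higher in high bone mass (HBM) than in wild-type (WT) mouse osteoblast cultures on days 10, 15 and 21, or averaged over days. The difference between HBM and WT was therefore what chose them, and it is given below as a description with no test. All 10 were found in the count table and all passed the filter on low counts. Cultures came from the pooled skull bones (calvariae) of newborn mice, and polyadenylated RNA was sequenced. The groups were HBM and WT cultures at days 0, 10, 15 and 21 of osteoblast differentiation, 8 groups of 3 libraries and 24 libraries in all. No other allele or treatment is named by the labels, which give neither the mutation of the HBM line nor the composition of the culture medium. Each genotype had 3 independent pooled cultures, numbered as batches 18, 19 and 21. Libraries that share a genotype and a batch number were taken to be 1 culture at successive days, an assumption that goes beyond the labels.

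Osteoblasts secrete a matrix of collagen I and then mineralize it, and as they mature they draw on citrate, amino acids and fatty acids for matrix, mineral and energy. Bone mineral holds citrate, and Slc13a5 encodes a sodium-coupled transporter that brings citrate into cells. Several other genes of the set belong to pathways better known from brain, heart and muscle. Lgi2 and Hapln4 encode secreted proteins of the nervous system, Unc5b a netrin receptor and Ston2 an adaptor for synaptic vesicle recycling. Hspb7 and Fabp3 encode proteins of heart and skeletal muscle.

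In the mm10 build all 10 are protein-coding genes, and they lie on 8 chromosomes. Slc13a5 (ENSMUSG00000020805) is at chromosome 11, 72241989 to 72267222, minus strand. Myo1d (ENSMUSG00000035441) is on the same chromosome at 80482126 to 80780025, minus strand. Col1a1, which encodes a chain of collagen I, lies on chromosome 11 as well, 22.7 Mb from Slc13a5 and 14.2 Mb from Myo1d. Chromosome 4 holds Hspb7 (ENSMUSG00000006221), from 141420779 to 141425311, and Fabp3 (ENSMUSG00000028773), from 130308595 to 130315463, both on the plus strand. Lgi2 (ENSMUSG00000039252) is at chromosome 5, 52533517 to 52566462, minus strand, and Bcat1 (ENSMUSG00000030268) at chromosome 6, 144993835 to 145076184, minus strand. Hapln4 (ENSMUSG00000007594) is at chromosome 8, 70083457 to 70090862, plus strand. Unc5b (ENSMUSG00000020099) is at chromosome 10, 60762593 to 60831581, minus strand. Ston2 (ENSMUSG00000020961) is at chromosome 12, 91633009 to 91788387, minus strand, and Mboat1 (ENSMUSG00000038732) at chromosome 13, 30136489 to 30246717, plus strand.

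The counts sum reads over exons, and the strand setting of the counting is not given in the sources used here. Fabp3 shares 81 exon bases, 9.84% of its exon length, with Zcchc17 on the opposite strand. Zcchc17 had 38556 counts over the 24 libraries and Fabp3 7349, so reads of the shared stretch are uncertain for Fabp3. Opposite-strand partners with shared exon bases also exist for Slc13a5 (1700051A21Rik, 50 counts against 65115 for Slc13a5) and Bcat1 (Gm26666, 23 counts against 44953 for Bcat1).

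Promoter sequences from RefSeq (GRCm38.p6, 250 bases before to 50 after an annotated start) were matched by symbol for 8 of the 10 genes, all but Hapln4 and Myo1d. Slc13a5 and Bcat1 had 2 starts each, which gave 10 promoters. The 3 shown are those of the gene with the highest fold in HBM, Slc13a5 (its start at the inner of the 2 sites), of the gene with the steepest change with time, Lgi2, and of Bcat1, which fell with time. Capitals mark matches on either strand to a CCAAT box (CCAAT), a GC box (GGGCGG), an AP-1 site (TGANTCA) or a TATA box (TATAAA), and each sequence reads 5′ to 3′ on the strand of its gene, minus in all 3 cases.
Slc13a5, chr11:72266555-72266854: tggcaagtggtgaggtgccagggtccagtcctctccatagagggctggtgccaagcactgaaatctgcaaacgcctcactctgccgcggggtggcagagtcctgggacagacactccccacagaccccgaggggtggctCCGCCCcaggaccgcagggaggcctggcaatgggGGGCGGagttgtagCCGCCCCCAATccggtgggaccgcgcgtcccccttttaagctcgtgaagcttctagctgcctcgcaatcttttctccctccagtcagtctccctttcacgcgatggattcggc
Lgi2, chr5:52566257-52566556: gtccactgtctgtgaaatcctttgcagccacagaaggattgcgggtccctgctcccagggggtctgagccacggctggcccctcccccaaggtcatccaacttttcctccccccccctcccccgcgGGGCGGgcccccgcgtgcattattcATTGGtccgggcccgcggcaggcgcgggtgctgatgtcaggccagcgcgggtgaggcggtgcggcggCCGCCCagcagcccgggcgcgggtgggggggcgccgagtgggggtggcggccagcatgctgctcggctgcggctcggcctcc
Bcat1, chr6:145076108-145076407: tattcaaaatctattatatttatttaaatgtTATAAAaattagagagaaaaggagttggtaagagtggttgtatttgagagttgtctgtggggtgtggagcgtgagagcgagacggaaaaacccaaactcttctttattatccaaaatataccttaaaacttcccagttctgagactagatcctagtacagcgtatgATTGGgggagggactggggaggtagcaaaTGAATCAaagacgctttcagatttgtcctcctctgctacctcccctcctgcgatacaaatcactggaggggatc

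The Slc13a5 window held GC boxes whose first bases lay at -111, -77 and -63 from the start and a CCAAT box at -57, directly after the third GC box. In the Lgi2 window, GC boxes began at -124 and -32 and a CCAAT box in reverse at -99. The Bcat1 window was poorer in G and C, at 41.0% against 63.7% for Slc13a5 and 73.3% for Lgi2, and held no GC box. Its AP-1 match at -24 overlapped a TCF/LEF match (CTTTGA, in reverse) at -20 and an E-box (CANNTG) at -28. Of the 10 promoters, 5 held a GC box and 4 a CCAAT box, against 35.7% and 37.4% of all 32851 promoters in the table. A TATA box, an AP-1 site and a TCF/LEF site were each found in 1 of the 10, the Bcat1 promoter shown, against 13.6%, 7.8% and 16.0% of all promoters. Its TATA match began at -219. The other Bcat1 promoter held none of these sites and had 58.7% G and C. An E-box was in 7 of the 10, against 72.3% of all, and a RUNX site (TGTGGT) in 0 of the 10, against 16.8%. Median G and C content was 62.0% in the 10 promoters and 52.7% in all.

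Levels are given in CPM, the counts scaled to a common library size, and errors are SDs of 3 cultures. Library totals ran from 28039095 to 46987734 counts. Both pools of batch 21 lacked Xist, the inactive X transcript of females, with at most 0.0291 CPM in HBM and 0.0328 CPM in WT libraries. Batch 19 held 177 to 246 CPM of Xist in HBM, against 18.0 to 41.7 CPM in WT. The Y-linked Ddx3y of batch 19 was at 33.5 to 48.1 CPM in HBM. In WT it was at 22.2 CPM at day 0, against 62.8, 55.6 and 62.0 CPM on days 10, 15 and 21. The Y-linked Kdm5d and Uty were also lower in that day 0 library than later. Eif2s3y, also Y-linked, was not, at 41.3 CPM against 35.0, 34.6 and 32.5 CPM. Whether that library came from the culture of the later days was not tested. For batch 18 the HBM libraries held 279 to 528 CPM of Xist and 12.1 to 18.2 CPM of the Y-linked Ddx3y, against 297 to 322 and 21.5 to 32.6 CPM in WT. The sex makeup of the pools thus differed between the genotypes in batch 19. In batch 18, with days 10 to 21 summed, Ddx3y in HBM was 0.598 times WT but Xist was 0.999 times. Whether the sex makeup differed in batch 18 is therefore not settled by these genes. The day 0 libraries of batch 19 stood out in the cartilage collagen Col2a1, at 8771 CPM in HBM and 15860 CPM in WT, against at most 3789 CPM in the other libraries.

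Across days 10, 15 and 21, each of the 10 genes was higher in HBM than in WT in 9 of 9 comparisons within a batch, which also holds for 6.16% of the 16592 genes tested. Since this contrast chose the genes, nothing is read from that count. The HBM mean was 1.34 to 3.50 times the WT mean on day 10 (median of the 10 genes 2.20), 1.52 to 2.50 times on day 15 (median 2.01) and 1.55 to 2.49 times on day 21 (median 2.05). At day 0 it was 0.875 to 1.43 times the WT mean, with a median of 1.15. At that time 3 of the 10, Lgi2, Myo1d and Bcat1, were higher in HBM in all 3 batches, against 13.6% of all genes. The medians over the 10 genes lay near 2 on each of the later days and near 1 at the start. Since the later days were part of what chose the genes, nothing is read from this contrast of late with early days.

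Levels also differed between batches, and the groups of 3 often overlapped. The lowest HBM library lay above the highest WT library for 1 of the 10 at day 0 (Myo1d), against 1.48% of all genes. On day 10 this held for 1 gene (Mboat1), against 5.98% of all genes. On day 15 it held for 3 (Mboat1, Hapln4 and Ston2), against 3.87%, and on day 21 for 7 (Slc13a5, Lgi2, Mboat1, Hapln4, Hspb7, Unc5b and Ston2), against 4.29%. Bcat1 and Fabp3 overlapped between the genotypes on every day, and Myo1d on days 10 to 21.

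**Figure D1:**
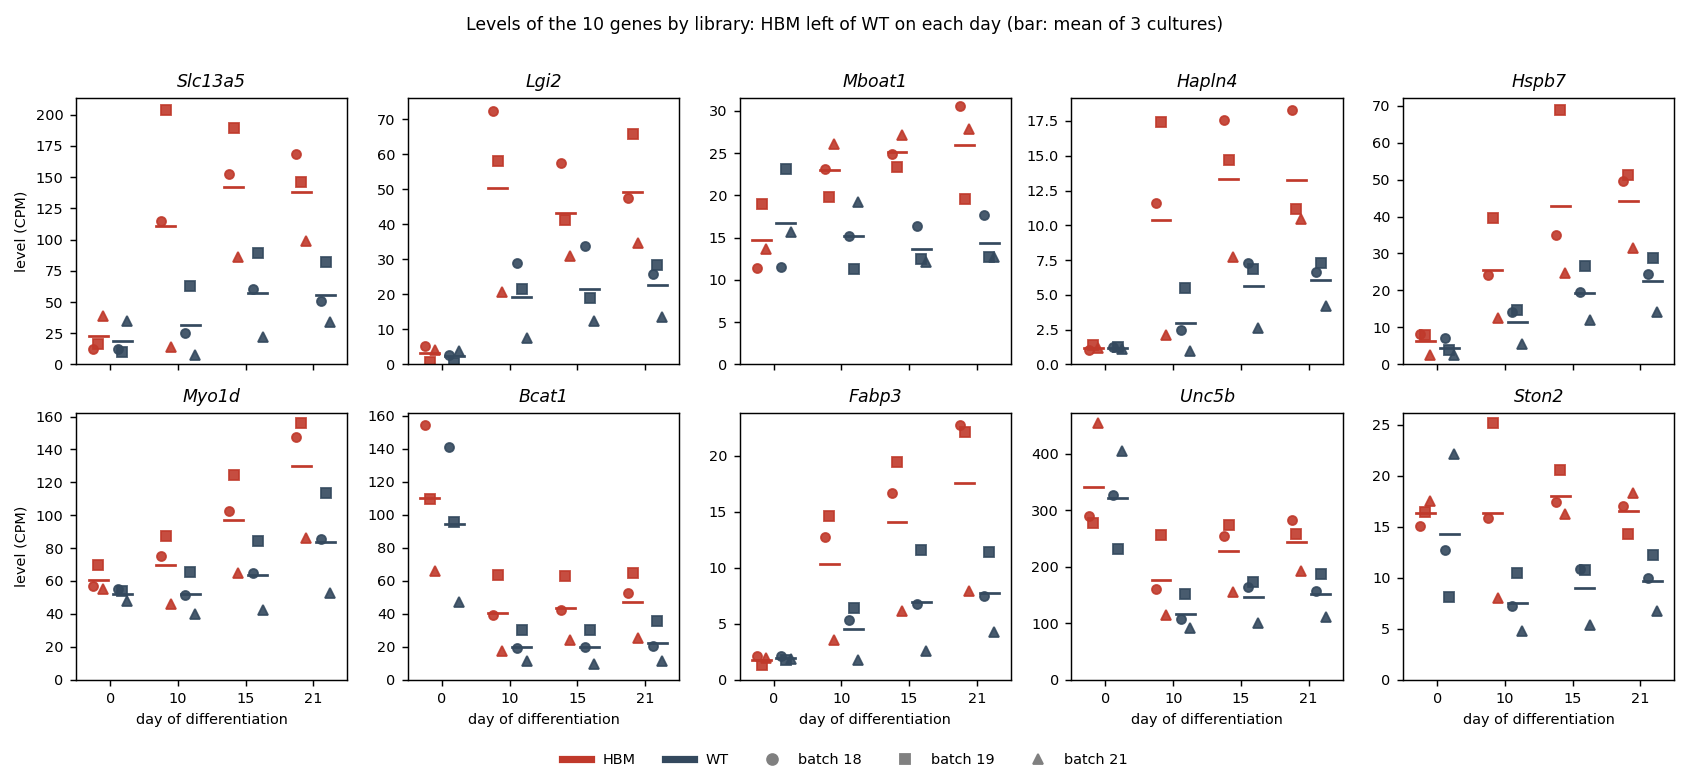
Level in CPM (vertical axis) of each of the 10 genes by day of differentiation (horizontal axis), with HBM libraries left of WT libraries; symbols mark the batch and bars the mean of 3 cultures. Averaged over days 10 to 21, batch 21 (triangles) is lowest for 9 of the 10 genes, a share not computed over all genes. Within each batch HBM lies above WT on days 10, 15 and 21, the contrast that chose the genes.

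Slc13a5, the citrate transporter, had the highest ratio of group means on each of the later days. At day 0 its level was 12.1, 16.6 and 38.6 CPM in HBM cultures of batches 18, 19 and 21, against 12.2, 9.81 and 35.2 CPM in WT cultures. On day 10 it was 115, 204 and 14.3 CPM in HBM, against 25.4, 62.4 and 7.22 CPM in WT. The day 10 libraries of batch 21 were thus lower than their own day 0 in both genotypes. By day 21 the HBM cultures had 169, 146 and 99.0 CPM, against 50.9, 81.8 and 33.7 CPM in WT, and the groups no longer overlapped. HBM was 1.79 to 4.51 times WT within a batch over days 10 to 21. Group means of HBM were 142 ± 52.5 CPM on day 15 and 138 ± 35.6 CPM on day 21, closer to each other than their spread, and in WT 57.1 ± 33.5 and 55.5 ± 24.3 CPM.

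Bcat1, the cytosolic enzyme that moves amino groups from leucine, isoleucine and valine to ketoglutarate, was highest at day 0. It then stood at 154, 109.5 and 66.0 CPM in HBM cultures of batches 18, 19 and 21, against 141, 95.2 and 46.8 CPM in WT cultures. On day 10 the values were 39.2, 63.6 and 17.3 CPM in HBM and 18.8, 29.7 and 11.3 CPM in WT. The order of the batches differed between these days in both genotypes, with batch 18 highest at the start and batch 19 from day 10 on. On day 21 it was at 52.4, 64.5 and 24.9 CPM in HBM, against 20.2, 35.3 and 11.1 CPM in WT. The highest WT library exceeded the lowest HBM library on every day, although HBM was 1.53 to 2.60 times WT within a batch over days 10 to 21.

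Fabp3, the heart-type fatty acid-binding protein, was low at day 0, at 1.78 ± 0.414 CPM in HBM and 1.90 ± 0.172 CPM in WT. On day 10 it stood at 12.8, 14.6 and 3.52 CPM in HBM cultures of batches 18, 19 and 21, against 5.34, 6.36 and 1.75 CPM in WT. On day 21 it stood at 22.8, 22.1 and 7.92 CPM in HBM, against 7.51, 11.4 and 4.24 CPM in WT. Batch 21 was lowest in each genotype on all 3 later days, and its HBM libraries lay below the WT libraries of batch 19 on each of these days. The shared exon stretch with Zcchc17 limits these values.

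Mboat1, an enzyme that adds fatty acids to lysophospholipids in membranes, had a lower mean in HBM at day 0 and a higher one later. At day 0 it was at 11.4, 18.9 and 13.6 CPM in HBM cultures of batches 18, 19 and 21, against 11.5, 23.1 and 15.7 CPM in WT cultures, so HBM was the lower in each batch. On day 10 it was at 23.2, 19.8 and 26.1 CPM in HBM, against 15.2, 11.3 and 19.2 CPM in WT. Day 15 gave 24.9, 23.3 and 27.1 CPM in HBM and 16.3, 12.5 and 12.2 CPM in WT. Day 21 gave 30.6, 19.6 and 27.8 CPM in HBM and 17.7, 12.7 and 12.7 CPM in WT. Mboat1 was the only one of the 10 with HBM below WT in all 3 batches at day 0, and the only one whose groups were apart on all 3 later days. Batch 18 was nearly even at day 0, at 0.995 times WT, and the WT library of batch 19 is the one with low Ddx3y. Shares of all genes with either trait were not computed, and the later days were part of what chose the gene.

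Lgi2, a secreted leucine-rich repeat protein whose family binds receptors of the ADAM22 type, was low at the start. At day 0 it was at 5.13, 0.831 and 4.15 CPM in HBM cultures of batches 18, 19 and 21, against 2.7, 0.483 and 3.89 CPM in WT cultures. On day 10 the levels were 72.5, 58.0 and 20.7 CPM in HBM and 29.0, 21.5 and 7.68 CPM in WT. Ratios within a batch were close together on that day, with a median of 2.69 and a lowest value of 2.5. On day 21 it was at 47.5, 65.8 and 34.8 CPM in HBM, against 25.7, 28.5 and 13.5 CPM in WT, with no overlap. Means of the later days lay within their spread of each other, at 50.4 ± 26.7, 43.2 ± 13.5 and 49.3 ± 15.6 CPM in HBM and 19.4 ± 10.8, 21.7 ± 10.9 and 22.5 ± 7.99 CPM in WT for days 10, 15 and 21.

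Hapln4, a link protein that ties proteoglycans to hyaluronan in the brain, was even at day 0, at 1.21 ± 0.183 CPM in HBM and 1.19 ± 0.0972 CPM in WT. On day 10 it was at 11.6, 17.4 and 2.14 CPM in HBM cultures of batches 18, 19 and 21, against 2.49, 5.50 and 0.967 CPM in WT. The day 10 library of batch 21 in WT was still below the day 0 mean. On day 15 it was at 17.6, 14.7 and 7.75 CPM in HBM, against 7.32, 6.89 and 2.62 CPM in WT, and the groups were apart from then on. The HBM excess within a batch ranged from 1.52 times (batch 19, day 21) to 4.67 times (batch 18, day 10), the widest range of the 10.

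Unc5b, a receptor for netrins that also acts in blood vessel guidance, was, like Bcat1, highest at day 0. At that time it was at 289.7, 278 and 454 CPM in HBM cultures of batches 18, 19 and 21, against 327, 231 and 404 CPM in WT cultures. On day 10 it was at 160.3, 256 and 114 CPM in HBM and 107, 152 and 92.0 CPM in WT. Batch 21 was thus the highest at day 0 and the lowest on day 10 in both genotypes. On day 21 the levels were 282, 258 and 192 CPM in HBM, against 157, 186 and 111 CPM in WT, with no overlap. Its HBM excess was modest, 1.24 to 1.80 times within a batch.

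Hspb7, a small heat shock protein of heart and muscle, was at 6.22 ± 3.12 CPM in HBM and 4.55 ± 2.24 CPM in WT at day 0. By day 21 it was at 49.5, 51.3 and 31.5 CPM in HBM cultures of batches 18, 19 and 21, against 24.4, 28.9 and 14.2 CPM in WT. The largest single value, 68.8 CPM, was the HBM library of batch 19 on day 15. Myo1d, an unconventional class I myosin that links membranes to actin, differed least, by 1.17 to 1.73 times within a batch. On day 21 it was at 148, 156 and 85.8 CPM in HBM, against 85.5, 113 and 52.4 CPM in WT, and the HBM library of batch 21 lay within 1 CPM of the WT library of batch 18. Ston2, an adaptor that sorts synaptotagmins during endocytosis, was at 16.3 ± 1.23 CPM in HBM and 14.3 ± 7.14 CPM in WT at day 0. HBM means of Ston2 stayed between 16.3 and 18.0 CPM on all 4 days, while WT means on days 10, 15 and 21 were 7.48 ± 2.86, 8.998 ± 3.19 and 9.63 ± 2.77 CPM. Its excess ran from 1.17 times (batch 19, day 21) to 3.05 times (batch 21, day 15).

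**Figure D2:**
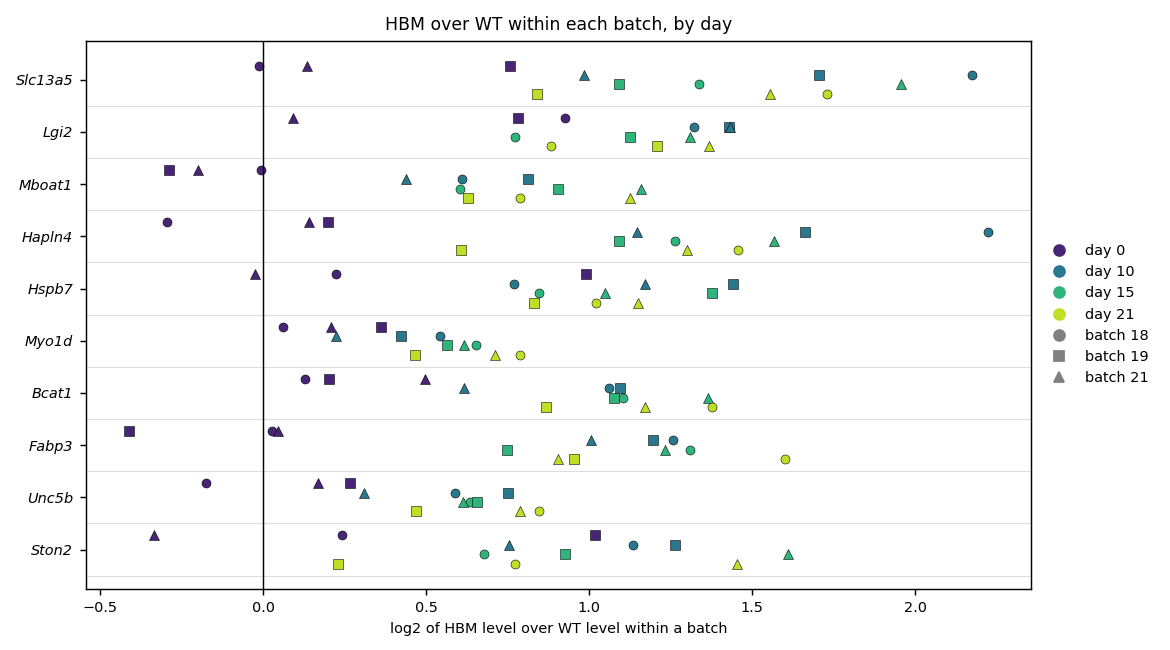
Log2 of the HBM level over the WT level of the same batch (horizontal axis) for each of the 10 genes, coloured by day, with symbols for the batch; the line marks equal levels. Every point of days 10, 15 and 21 lies right of the line, whereas 3 points of Mboat1 and single points of 6 other genes at day 0 lie left of it.

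Per kilobase of exon, which allows genes to be compared, Unc5b stood highest on day 21, at 39.0 CPM per kilobase in HBM and 24.2 in WT. Slc13a5 followed in HBM at 27.9 CPM per kilobase, against 11.2 in WT, and then Fabp3 at 21.4 in HBM and 9.38 in WT and Myo1d at 20.1 in HBM and 12.9 in WT. Hapln4, at 3.39 in HBM and 1.55 in WT, and Ston2, at 1.33 in HBM and 0.774 in WT, were the lowest. In WT cultures Myo1d, not Slc13a5, was second. In batch 21, where both pools lacked Xist, the counts summed over days 10 to 21 were 1.48 (Myo1d) to 3.25 times (Slc13a5) higher in HBM than in WT. These days of batch 21 were part of what chose the genes, and the part of sex makeup in the excess was not tested. Slc13a5 had 3.27 and 2.31 times in batches 18 and 19, and Myo1d 1.63 and 1.44 times. For Lgi2, Mboat1 and Ston2 batch 21 had the highest ratio of the 3 batches, at 2.58, 1.79 and 2.54.

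Summed over all 4 days of each culture, the median log2 difference of the 10 genes between HBM and WT was 0.90, against -0.01 for all 18387 genes tested. In that fit, edgeR's quasi-likelihood test called 0% of all genes higher and 0% lower in HBM at an adjusted p of 0.05, with 555 genes at an unadjusted p under 0.05 and 25 genes called by DESeq2. With batch as a block it again called 0. Libraries of the 2 genotypes with the same batch number deviated together, so a comparison of days 10, 15 and 21 summed per culture with batch as a block was added after the data had been seen. It called 249 of 17728 genes higher in HBM (1.4%) and 170 lower (0.959%), and called 0 without the block, so the calls need both the block and the omission of day 0. The median log2 difference of the 10 genes in it was 1.10, against -0.01 for all genes.

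The change with time, averaged over HBM and WT, did not enter the choice of the genes and was tested across all 24 libraries. From day 0 to day 10, 22.3% of the 16592 genes tested rose and 21.9% fell. Of the 10 genes, 5 rose (Lgi2, Hapln4, Fabp3, Hspb7 and Slc13a5), 2 fell (Bcat1 and Unc5b) and 3 did not pass the test (Mboat1, Myo1d and Ston2). The set therefore joined genes that moved in opposite directions over the first 10 days. Its median log2 change was 0.89, against -0.02 for all genes.

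Lgi2 rose the most, to 34.9 ± 24.9 CPM on day 10, against 2.86 ± 1.88 CPM at day 0 (n = 6 cultures), a log2 change of 3.47 ± 0.52 (SE, adjusted p = 3.96e-05) seen in 6 of 6 cultures. Hapln4 rose by 2.21 ± 0.45 (adjusted p = 0.000694), in 5 of 6 cultures. Fabp3 followed with 1.88 ± 0.45 (adjusted p = 0.00245), in 5 of 6, and Hspb7 with 1.68 ± 0.38 (adjusted p = 0.00172), in 6 of 6. For Hapln4 and Fabp3 the exception was the WT culture of batch 21. The rise of Slc13a5 was less certain: its log2 change was 1.52 ± 0.57 (adjusted p = 0.0382), in 4 of 6 cultures, both exceptions being those of batch 21, and with the culture as a block it was 1.08 (adjusted p = 0.163). Across 11 alternatives it kept its call in 5, with adjusted p from 0.00656 to 0.247.

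Bcat1 fell to 30.0 ± 19.2 CPM on day 10, against 102 ± 41.7 CPM at day 0, by a log2 change of -1.85 ± 0.42 (adjusted p = 0.00162), and was lower in 6 of 6 cultures. Unc5b fell to 147 ± 59.5 CPM, against 331 ± 83.7 CPM, by -1.20 ± 0.23 (adjusted p = 0.000431), and was lower in 6 of 6 cultures too. Mboat1 had a log2 change of 0.26 ± 0.18 (adjusted p = 0.26), Myo1d of 0.10 ± 0.22 (adjusted p = 0.753) and Ston2 of -0.47 ± 0.28 (adjusted p = 0.18). Without the WT culture of batch 19, Mboat1 was called at 0.50 (adjusted p = 0.0327) and Ston2 at -0.77 (adjusted p = 0.0358). Without its day 0 library alone they were at 0.41 (adjusted p = 0.0607) and -0.61 (adjusted p = 0.0757).

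**Figure D3:**
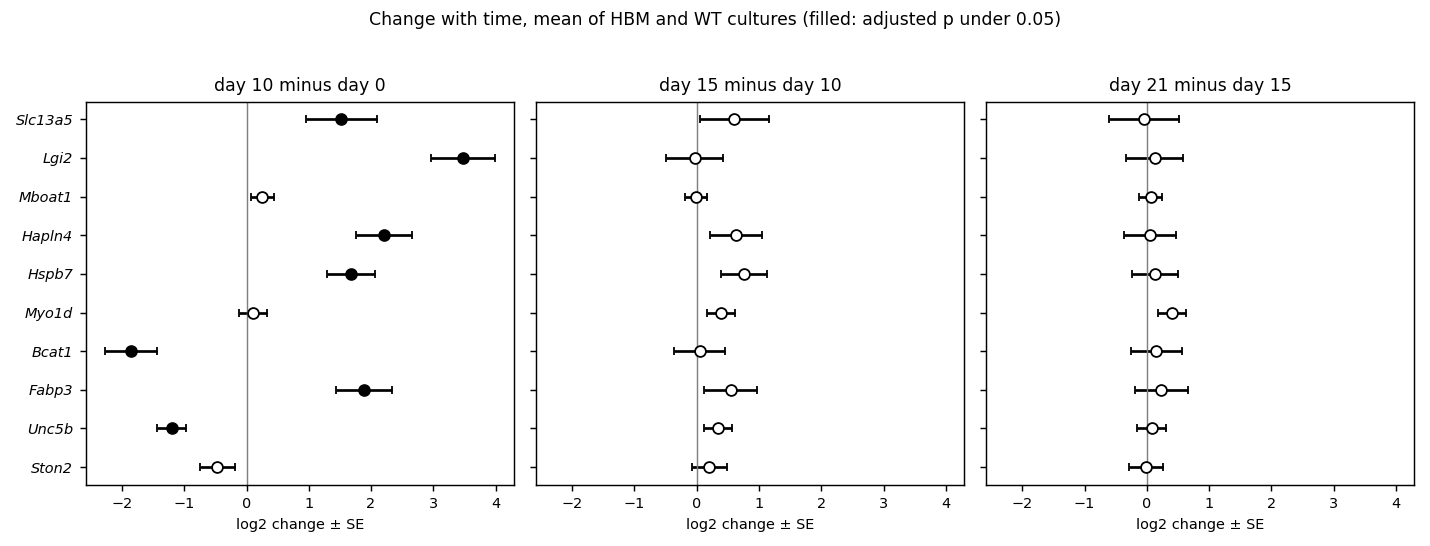
Log2 change with time averaged over HBM and WT (horizontal axis, ± SE) of each of the 10 genes for the 3 steps between sampled days; filled points have an adjusted p under 0.05. In the first step 5 genes lie right of 0 and 2 left of it with filled points, and no point is filled in the later steps.

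None of the 10 genes passed the test in a later step. edgeR's quasi-likelihood test called 0% of all genes higher and 0% lower from day 10 to day 15, and likewise 0% and 0% from day 15 to day 21, with 329 and 212 genes at an unadjusted p under 0.05 and 0 by DESeq2. With the culture as a block, 5 genes were called from day 10 to 15, none of them in the set, and 0 from day 15 to 21. The median log2 change of the 10 genes was 0.37 from day 10 to 15 and 0.10 from day 15 to 21, against 0.01 and 0.00 for all genes. Hspb7, Myo1d, Fabp3 and Unc5b were higher on day 15 than on day 10 in 6 of 6 cultures, with log2 changes of 0.76 ± 0.37, 0.39 ± 0.23, 0.55 ± 0.43 and 0.34 ± 0.23 (adjusted p = 1 for each). Myo1d and Bcat1 were higher on day 21 than on day 15 in 6 of 6 cultures, at 0.40 ± 0.22 and 0.15 ± 0.41 (adjusted p = 1 for each).

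All of the genes but Mboat1 also varied together between cultures of the same group. Deviations of log2 CPM from the group means over the 24 libraries gave 45 pairs, of which 36 had a positive Pearson r, with a median of 0.654 and a range from -0.581 (Lgi2 and Mboat1) to 0.922 (Hspb7 and Bcat1). All 9 negative pairs were those of Mboat1. Slc13a5 followed Ston2 (0.897), Unc5b (0.883) and Hapln4 (0.875), whereas Bcat1, Hspb7 and Myo1d followed each other (0.80 to 0.922). These libraries share batches and cultures, so the correlations describe the batches as much as the genes. Pairs of other genes were not counted in this way, so the positive pairs are not read as a trait of the set. Means over days 10 to 21 were lowest in batch 21 for 9 of the 10 genes, Mboat1 being the exception, with its lowest mean in batch 19. What share of all genes was lowest in batch 21 was not computed. Slc13a5 averaged 43.7 CPM in batch 21, against 95.4 and 129 CPM in batches 18 and 19.

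**Figure D4:**
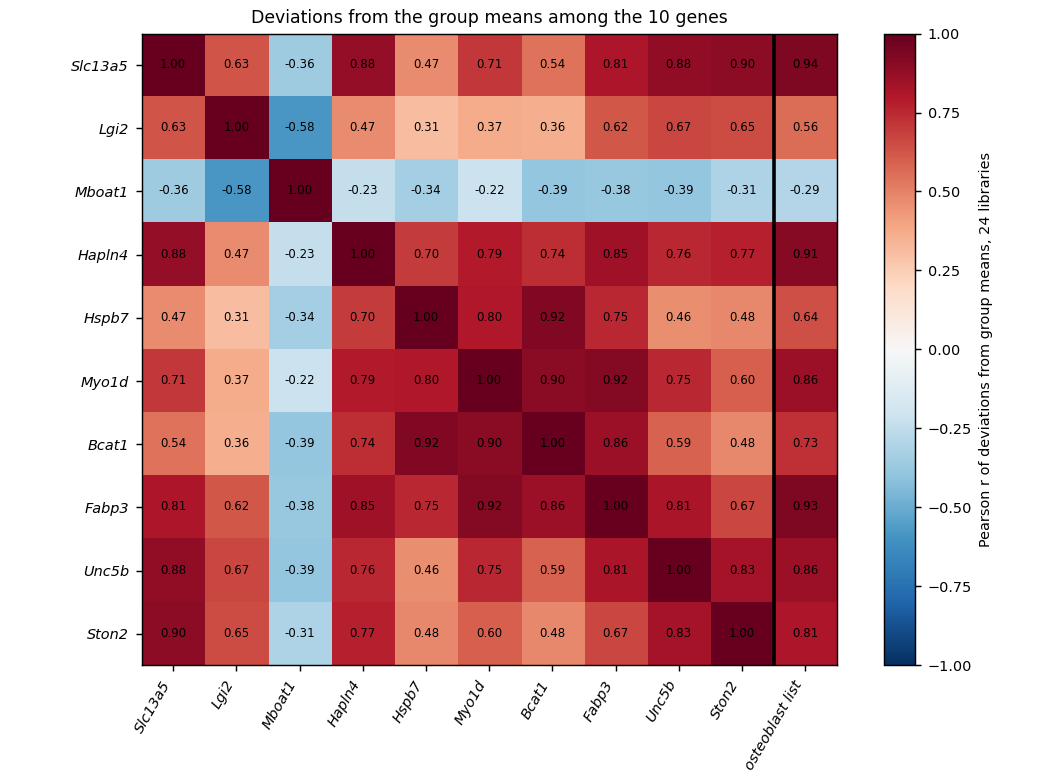
Pearson r between the deviations from the group means of each pair of the 10 genes over 24 libraries, with the mean of 11 osteoblast markers in the last column; red is positive and blue negative. Mboat1 is the only row that is blue in every cell but its own, and Slc13a5, Fabp3 and Hapln4 have the highest r with the osteoblast markers, at 0.937, 0.931 and 0.911.

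Markers of the osteoblast itself had higher values in HBM too. Over libraries that share batches they deviated together with 9 of the 10 genes, Mboat1 being the exception. The summed level of 11 osteoblast markers was 87120 to 254500 CPM in HBM and 54080 to 140300 CPM in WT libraries of days 10 to 21. At day 0 it was 51300 to 70700 CPM in HBM and 43870 to 66850 CPM in WT. Col1a1, Col1a2 and Sparc made up most of it, at 76560, 62070 and 27290 CPM in HBM over days 10 to 21, against 1832 CPM of Ibsp. The sum therefore does not show by itself that osteoblasts were present in every library. All 11 had higher values in HBM in the added comparison of days 10 to 21, with a median log2 difference of 0.84, and 5 were called. These were the transcription factor gene Sp7 (1.01, adjusted p = 0.0406), the alkaline phosphatase gene Alpl (1.02, adjusted p = 0.0336), bone sialoprotein Ibsp (1.56, adjusted p = 0.0452), the parathyroid hormone receptor Pth1r (0.70, adjusted p = 0.0406) and the phosphatase Phospho1 (1.23, adjusted p = 0.0452). Col1a1 had a difference of 0.84 (adjusted p = 0.0667). The deviations of 9 of the 10 genes had r of 0.555 to 0.937 with the mean of these markers and Mboat1 had -0.294, against a median of 0.0344 over 16571 genes, with quartiles of -0.276 and 0.349. In bulk RNA more osteoblasts and more RNA per osteoblast cannot be told apart, and the part of either in the HBM excess of the 10 genes was not tested.

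Of the markers of tissues in which several of the genes are better known, 1 was called. The 9 skeletal muscle markers summed to 11.2 to 37.1 CPM in HBM and 11.8 to 48.8 CPM in WT on days 10 to 21, and 3 of the 7 tested had higher values in HBM, with 0 called. The 7 nerve and glia markers summed to 25.5 to 41.7 CPM in HBM and 19.3 to 34.7 CPM in WT, and 2 of the 5 tested had higher values. The gene called was Tubb3, a tubulin, higher in HBM at 16.4 ± 4.89 CPM, against 8.77 ± 1.60 CPM in WT (log2 0.87, adjusted p = 0.0393). Its call was lost without batch 19, without batch 21 and without the block. The 9 adipocyte markers summed to 270 to 612 CPM in HBM and 234 to 785 CPM in WT. Of these 0 of the 8 tested had higher values in HBM and 0 were called, with a median log2 difference of -1.21, against -0.24 in the fit summed over 4 days without a block. The batches differed: Adipoq was 1.09, 0.189 and 0.00581 times its WT level in HBM cultures of batches 18, 19 and 21, and Plin1, Cidec, Cfd and Fabp4 were likewise above WT in batch 18 and below it in the others. Fabp4 is also in the list of fatty acid genes below. Of the other fatty acid-binding protein genes, Fabp1, Fabp2 and Fabp6 were at 0 in all 24 libraries.

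Few partner genes of the pathways were called. Over 10 lists of relatives and partners, 97 genes were tested, and in the fit of counts summed over the 4 days 0 were called in either direction. In the added comparison of days 10 to 21 with batch as a block, 1 of the 97 was called higher and 3 lower, against 1.4% and 0.959% of all genes. The share called higher was near that of all genes and the share called lower was above it, but both rest on few genes. The added calls depend on the pairs: of these 4, the 5 osteoblast markers, Sp7 among them, and 6 other genes, 15 in all, 14 were called without batch 18, 0 without batch 19 and 0 without batch 21. Adjusted p-values were then 0.00735 to 0.0501, 0.051 to 0.224 and 0.102 to 0.151.

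Bcan, encoding brevican, a hyaluronan-binding proteoglycan of the brain that link proteins hold in place, was the gene called higher, in the list of Hapln4. It stood at 10.7 ± 5.45 CPM in HBM and 5.196 ± 2.83 CPM in WT (log2 1.08 ± 0.16, adjusted p = 0.0464). HBM was above WT in batches 18, 19 and 21 by 2.48, 1.57 and 2.47 times, and without batch 18 its adjusted p was 0.0501. In that list 7 of 11 had higher values, with a median log2 difference of 0.17. The link protein gene Hapln1, at 33.0 ± 4.37 CPM in HBM and 33.4 ± 6.68 CPM in WT, had a difference of 0.00 (adjusted p = 0.997), and Hapln3 of 0.56 (adjusted p = 0.105).

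The genes called lower belonged to the lists of Unc5b and Hspb7. Neo1, which encodes neogenin, another netrin receptor, was at 232 ± 9.38 CPM in HBM and 295 ± 20.5 CPM in WT (log2 -0.35 ± 0.05, adjusted p = 0.0471). Rgma, a ligand of neogenin, was at 47.3 ± 9.5 CPM in HBM and 69.3 ± 8.73 CPM in WT (log2 -0.56 ± 0.08, adjusted p = 0.0481). In the netrin and UNC5 list 1 of 13 had higher values in HBM, with a median of -0.23. Netrin 1, Ntn1, was at 20.9 ± 6.56 CPM in HBM and 21.7 ± 5.60 CPM in WT (adjusted p = 0.593). Hspb1, the widely expressed small heat shock protein, was at 28.4 ± 4.87 CPM in HBM and 35.7 ± 4.09 CPM in WT (log2 -0.34 ± 0.05, adjusted p = 0.046), in a list where 4 of 7 had higher values.

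In the other 7 lists 0 genes were called and the medians lay between -0.19 and 0.06. Higher values in HBM were seen for 7 of 11 genes of citrate handling (median log2 0.05), 0 of 5 of the LGI family and its receptors (-0.19), 6 of 9 membrane-bound O-acyltransferases (0.06) and 4 of 7 class I myosins (0.04). The counts were 5 of 12 for branched-chain amino acid catabolism and uptake (0.00), 4 of 11 for fatty acid binding and uptake (-0.05) and 5 of 11 for stonins and AP-2 endocytosis (-0.01). Bcat2, the mitochondrial counterpart of Bcat1, was at 48.9 ± 1.47 CPM in HBM and 48.9 ± 1.25 CPM in WT. Slc7a5, a carrier of leucine into cells, was at 92.8 ± 66.6 CPM in HBM and 36.2 ± 19.2 CPM in WT (log2 1.16, adjusted p = 0.103).

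The genes furthest from 0 in each list in the fit summed over 4 days, as far as named here, had an adjusted p of 1 in every case. For citrate carriers related to Slc13a5 the log2 differences were -0.48 for Slc13a2 and -0.24 for Slc13a3. The LGI receptors Adam11 and Adam22 had -0.32 and -0.23. Among the acyltransferases Soat2 had 0.88 and Mboat4 0.27, and among the hyaluronan genes Bcan had 1.04 and the synthase Has1 0.88. The small heat shock proteins Hspb1 and Hspb2 had -0.34 and 0.23, and the myosin Myo1a 0.14. Slc7a5 had 0.49 and Ppm1k, the phosphatase that activates branched-chain ketoacid breakdown, -0.25. The fatty acid genes Fabp4 and Cpt1b had -0.28 and 0.21, the netrin receptors Dcc and Unc5d -1.86 and -0.71, and Syt1 and Ap2s1 of the endocytosis list 0.46 and -0.15.

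**Figure D5:**
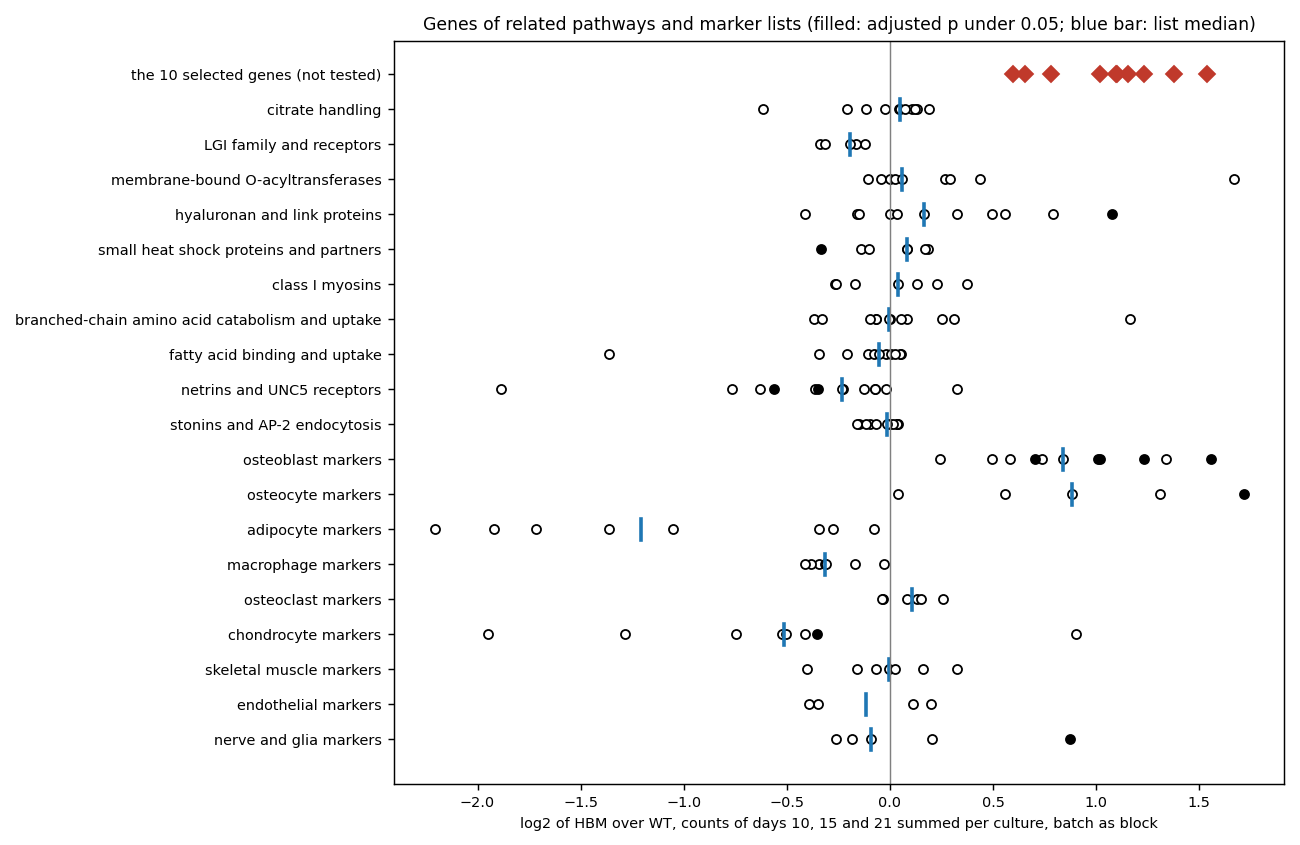
Log2 of HBM over WT (horizontal axis) for days 10, 15 and 21 summed per culture with batch as a block: the 10 selected genes (diamonds, not tested), then each gene of the pathway and marker lists, filled where the adjusted p is under 0.05, with a bar at the median of each list. Medians of the 10 lists of partner genes run from -0.23 (netrins and UNC5 receptors) to 0.17 (hyaluronan and link proteins). The osteoblast and osteocyte markers lie to the right and the adipocyte markers to the left.

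Over the 24 libraries genes close to the mean standardised level of the 10 included Creb3l1 (r = 0.949, the highest), Carmil1 (0.926), Gpc1 (0.926) and Inpp5a (0.921). Creb3l1 encodes a membrane-bound transcription factor of secretory osteoblasts and Gpc1 a glypican. In the added comparison of days 10 to 21 Creb3l1 was at 304 ± 69.2 CPM in HBM and 189 ± 51.9 CPM in WT (log2 0.70 ± 0.05, adjusted p = 0.0271), and Gpc1 differed by 0.73 (adjusted p = 0.0338). Both calls were likewise lost without batch 19, without batch 21 and without the block. Carmil1, at 0.69 (adjusted p = 0.051), and Inpp5a, at 0.33 (adjusted p = 0.0589), did not pass the threshold. Because likeness to genes chosen for their HBM excess carries that excess along, these differences are not independent of the choice.

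By deviations from the group means alone, the closest gene was a different one for each of the 10. For Slc13a5 it was Col22a1 (r = 0.97), for Bcat1 Sec16b (0.957), for Fabp3 Zbtb7c (0.98) and for Mboat1 Slc35a1 (0.906). For Lgi2 it was 5730455P16Rik (0.93), for Hapln4 Sgms2 (0.97) and for Unc5b Btla (0.96). For Hspb7 it was A930033H14Rik (0.967), for Myo1d Lrrc36 (0.977) and for Ston2 Fam189a2 (0.897). Each r is over 24 libraries and is the highest among all genes tested.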

How the data were processed

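Polyadenylated RNA of 6 cultures was sequenced in 24 libraries. The deposited table holds counts of reads per gene, which the authors made with cutadapt 3.4, STAR 2.7.8a and featureCounts (Subread 2.0.1) on mm10, per the submitters' processing notes. The sources used here name neither a strand setting nor an annotation release. Of 54232 rows, 54164 matched GENCODE M21, which supplied symbols, coordinates and exon lengths, and 68, with at most 0.00337% of the counts of a library, did not. All 24 columns were used, with totals of 28039095 to 46987734 counts. Reads were counted without molecular identifiers, and errors are those between cultures.

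The tests used edgeR 4.0.16 under R 4.3.3 (quasi-likelihood test, filterByExpr, TMM factors of 0.866 to 1.11), with Benjamini-Hochberg adjustment over all genes tested and a threshold of 0.05. SEs come from the F statistic. Changes with time are contrasts of 8 group means (16592 genes), averaged over the genotypes. HBM minus WT was fitted on counts summed per culture (18387 genes). An added fit summed days 10, 15 and 21 with batch as a block (17728 genes). CPM are TMM-scaled, and correlations use log2 CPM with a prior count of 2.

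Samples were grouped by the genotype and day of the labels. Batch numbers pair the cultures: HBM and WT libraries of the same day and number deviated together (r across genes of 0.542 to 0.815 in 12 of 12 cases, at most 0.127 for other numbers). The time fits treat the days of a culture as independent, except with the culture as a block. Alternatives were DESeq2 1.42.0, RLE size factors, no filter on low counts, blocks, days or batches left out, and each culture left out in turn. The planned procedures were tested on simulated counts that held no batch or culture effects. The added fit was not among the procedures tested in that way.

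The 10 genes and the gene lists were chosen with earlier results of these data known. The genes named are the 10, the 2 genes of each pathway list with the largest difference in the summed fit, where 0 were called, the 5 genes closest to the mean of the 10 and the closest to each, and Xist, Ddx3y and Col1a1; 2 genes that this rule names are not reported here. Others, among them all calls of the added fit and the relatives Hapln1, Hapln3, Ntn1 and Bcat2, were named after their values were seen.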

Additional observations from a re-analysis of the deposited data

Results flagged for a closer look

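Mboat1 changed the side of its genotype difference between day 0 and the later days. The HBM mean was 1.51 times the WT mean on day 10, 1.84 times on day 15 and 1.81 times on day 21, above WT in all 3 batches each time. At day 0 it was 0.875 times the WT mean and below WT in all 3 batches, by ratios of 0.995, 0.819 and 0.870 in batches 18, 19 and 21. The difference between days was not tested, since the later days were part of what chose the gene. How many of all genes changed side in this way was not computed.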

How the results depend on the processing

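Lgi2, Hapln4, Hspb7, Fabp3, Bcat1 and Unc5b kept their direction and call from day 0 to day 10 under all 11 alternatives. The count of genes changed between these days was 7328 and ranged from 5524 to 7447 when a culture was left out. From day 10 to 15 it was 5 with the culture as a replicate block, against 0 without. For HBM minus WT summed over 4 days, DESeq2 called 25 genes, and the replicate block by batch without day 0 called 419, against 0. The replicate block with all 4 days, and the omission of day 0 without a block, each called 0. The median log2 difference of the 10 genes, 0.90, ranged from 0.72 to 1.10 when a culture was left out, was 1.10 without day 0, 1.10 with the replicate block by batch and without day 0, 0.78 in batch 18 alone and 0.85 in batch 21 alone. The 419 calls of the added comparison became 1222 with no filter on low counts, 1437 with DESeq2, 0 with no replicate block, and 0 to 806 when a batch was left out (806 without batch 18, 1 without batch 19, 0 without batch 21). Genes far from any threshold changed sign. Fabp4, at -0.28, and Syt1, at 0.46, did so when single cultures were left out, over ranges of -3.07 to 0.53 and -0.10 to 0.69. Cpt1b, at 0.21, ranged over -0.17 to 0.61 when single cultures were left out, was -0.12 without day 0 and was -0.077 with the replicate block and without day 0. The causes of these changes were not tested. For the change from day 0 to day 10, the replicate block changed the call of Slc13a5 and of no other of the 10 genes.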

Other observations

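Other cell types were set beside the 10 genes by the added comparison of days 10, 15 and 21 with batch as a block. Of 5 osteocyte markers tested, 5 had a fitted log2 difference above 0 (median 0.88). The mean of Mepe was lower in HBM, at 4.408 against 4.525 CPM, and its batches 18, 19 and 21 had 1.21, 0.637 and 5.37 times WT. Pdpn was nearly even, at 1.03 times. In the fit summed over 4 days without a block, 4 of 5 were above 0. The 1 gene called was Sost, a secreted Wnt inhibitor, at 33.4 ± 29.0 CPM in HBM and 12.6 ± 15.1 CPM in WT (log2 1.72, adjusted p = 0.0452). Of 8 chondrocyte markers, 1 had a higher value (median -0.51), and Sox9, the cartilage transcription factor gene, was called lower, at 60.7 ± 5.36 CPM in HBM and 77.8 ± 11.8 CPM in WT (log2 -0.35, adjusted p = 0.0477). Both calls were lost without batch 19, without batch 21 and without the block. The summed chondrocyte level ran from 1630 to 4162 CPM in HBM and 1196 to 4528 CPM in WT on days 10 to 21. Macrophage markers had higher values in HBM for 0 of 7 (median -0.31), with 0 called, and summed to 322 to 2365 CPM in HBM and 538 to 2333 CPM in WT. The batches differed here too: Ptprc was 0.417, 1.12 and 0.984 times its WT level in HBM cultures of batches 18, 19 and 21, and all 7 were below WT in batch 18 and above it in batch 19. Higher values were seen for 4 of 6 osteoclast markers (0.11) and 2 of 4 endothelial markers (-0.12), with 0 called, and the endothelial markers summed to 1.69 to 7.29 CPM in HBM and 2.26 to 7.77 CPM in WT, with Tie1 at 0 in all 24 libraries. The part of these cells in the levels of the 10 genes was not tested.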
